A study of Mus musculus with 24 samples.

Results

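The maturation of wild-type (WT) osteoblast cultures was followed from day 10 to day 21 of differentiation. Osteoblasts are the cells that lay down bone matrix and mineralize it. The comparison set the 3 WT libraries of day 21 against the 3 WT libraries of day 10, chosen by the genotype, day and batch of their labels, out of 24 libraries in the series. The 3 WT libraries of day 15 showed the path between these days and were also part of the fit that tested day 21 against day 10. Each library is bulk RNA-seq of polyadenylated RNA from a culture grown from pooled calvariae (skull bones) of newborn mice, and the labels describe 3 independent pooled cultures, numbered as batches 18, 19 and 21. A batch number that recurs on several days was read as the same culture, which the labels do not state. The labels give no strain or sex. The other genotype, a high bone mass (HBM) line whose mutation the labels do not give, was sampled on the same days under the same batch numbers and is used below only to set its change beside that of WT.

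In maturing osteoblasts, division slows while the cells deposit a matrix of collagen I and then load it with mineral. Alkaline phosphatase, bone sialoprotein and osteocalcin are classical markers of successive stages, and Runx2 and Sp7 are the transcription factors that commit cells to the lineage. Some cells become osteocytes, which sit inside the matrix and secrete factors such as sclerostin that restrain bone formation.

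The 9 WT libraries of days 10 to 21 held 28039095 to 46987734 counts, and mitochondrial genes took 0.774% to 1.44% of them. Osteoblast genes were present in all of them, with Runx2 at 67.0 to 120 CPM (counts scaled by library size) at day 21 and 71.0 to 103 CPM at day 10. Batches differed more than days: the first principal component, with 37.5% of the variance, set batch 21 apart. Libraries of the same batch deviated together from their day means (correlations of 0.629 to 0.768 across genes), so batch was a block in the model. Without that block no gene passed. Markers of other cells were present too. The 13 macrophage markers summed to 5782 to 9328 CPM at day 21 and 2898 to 9068 CPM at day 10, the 10 osteoclast markers to 561 to 823 and 350 to 562 CPM, and the 12 adipocyte markers to 786 to 1146 and 299 to 505 CPM. The osteoclast markers already summed to 206 to 319 CPM in the WT libraries of day 0. In batch 18 at day 21 their sum was 710 CPM, with Acp5, Mmp9, Atp6v0d2 and Dcstamp at 41.6, 15.8, 11.6 and 0.166 CPM. The 10 chondrocyte markers summed to 1372 to 2760 CPM at day 21 and 1132 to 4864 CPM at day 10. The 14 lymphoid and other blood cell markers summed to at most 1.20 CPM at day 21 and 1.13 CPM at day 10, and the T cell gene Cd3e was at 0 on both days. In bulk RNA, a change in the number of cells of a type and a change in RNA per cell cannot be told apart.

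Day 21 cultures had more mRNA of many bone mineralization, osteocyte, complement and myeloid genes and less mRNA of cell division genes than day 10 cultures, while the collagen I genes did not pass the test. Of 15859 genes tested, 1460 rose (9.21%) and 977 fell (6.16%), or 15.4% in all, at an adjusted p under 0.05 in edgeR's quasi-likelihood test. At least 2-fold changes were found for 453 genes that rose and 162 that fell (3.88% of genes tested together). The median log2 change was 0.70 among genes that rose and -0.48 among genes that fell, against -0.006 over all genes tested. In 3 of 3 batches the direction was the same for 2432 of the 2437 genes, which their selection by the same batches favours. The fit behind these calls included the day 15 libraries. A fit of the 6 libraries of days 10 and 21 alone called 1269 genes. The number called depended on single cultures: it was 357 without batch 19, 1172 without batch 18 and 1954 without batch 21, and 286 genes were called with each of the 3 batches left out.

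**Figure D1:**
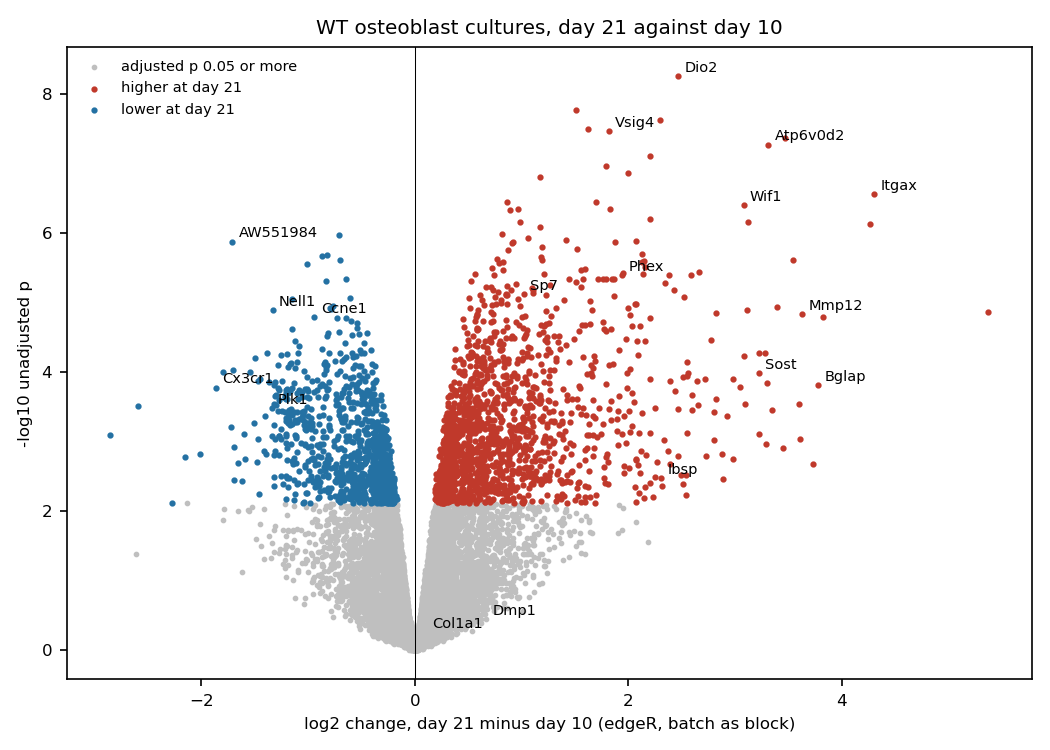
Log2 change of each of 15859 genes, day 21 minus day 10, in WT cultures (x axis) against -log10 of the unadjusted p (y axis). Red points rose (1460 genes), blue points fell (977 genes) and grey points did not pass. Dio2 stands highest, and Col1a1 and Dmp1 lie among the grey points.

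Bone matrix and mineralization genes rose as a group. Of 20 such genes 13 rose and 0 fell, against 9.21% of all genes tested that rose, with a median log2 change of 0.94. Osteocalcin, Bglap, the calcium-binding protein of late osteoblasts, was at 576, 576 and 143 CPM in batches 18, 19 and 21 at day 21, against 35.4, 141 and 1.87 CPM at day 10. It was higher in each batch, and the lowest day 21 library, batch 21, was close to the highest of day 10, batch 19. The fitted rise of Bglap was 13.8-fold (3.78 ± 0.59 SE on the log2 scale, adjusted p = 0.00544). Without batch 18 the adjusted p was 0.0545. Its neighbour Bglap2, a near-identical copy whose reads may be shared with it, rose 9.30-fold (adjusted p = 0.00329). Bglap is at chr3:88383501-88384464 and Bglap2 at chr3:88377736-88378699, both on the minus strand of mm10.

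Bone sialoprotein, Ibsp, which nucleates mineral, was at 855, 1620 and 495 CPM at day 21, against 218, 866 and 20.6 CPM at day 10. It rose within each batch, although the groups overlapped because batch 19 was already high at day 10. The rise was 4.96-fold (log2 2.31 ± 0.57, adjusted p = 0.0292) and was lost without the batch 18 library of day 10 (0.0796) or of day 21 (0.0621). Alpl, the tissue-nonspecific alkaline phosphatase that frees phosphate for mineral, was at 238, 447 and 136 CPM at day 21 and 145, 240 and 76.9 CPM at day 10. Its rise was much alike in the batches, with log2 changes of 0.71, 0.90 and 0.82 (0.81 ± 0.11 fitted, adjusted p = 0.00315).

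Osteopontin, Spp1, an acidic matrix phosphoprotein, rose 2.15-fold (adjusted p = 0.0136, and 0.0603 without the day 21 library of batch 18). The phosphate-releasing enzymes also rose: Smpd3 by a log2 of 1.98 ± 0.41 (adjusted p = 0.0146) and Phospho1 by 1.63 ± 0.32 (0.0127). Ifitm5, an osteoblast membrane protein, rose by 1.79 ± 0.40 (0.0191), and Slc13a5, a citrate transporter, by 1.11 ± 0.28 (0.0286). The pyrophosphate genes Enpp1 and Ank rose by 0.66 (0.0152) and 0.43 (0.0158), and the collagen gene Col24a1 by 1.24 (0.0101). Omd, the mineral-binding proteoglycan osteomodulin, rose by 0.50 (0.0472), a result that needed 4 of the 6 libraries (0.117 to 0.171 without 1 of them). Sparc, the abundant collagen-binding protein osteonectin, was at 26340, 26567 and 14103 CPM at day 21 and 19644, 20415 and 11831 CPM at day 10, higher in each batch without passing (adjusted p = 0.0889). Of the 13 calls, 3 held with each batch left out.

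The promoter of Bglap is shown because the gene had one of the largest rises, with the 250 bases before its RefSeq start on GRCm38.p6 (chr3:88384467-88384716, minus strand) and capitals for a TATA box (TATAAA) and for a CCAAT motif. That of Dio2, described further on, is shown because that gene had the smallest p (chr12:90739039-90739288, minus strand).
Bglap: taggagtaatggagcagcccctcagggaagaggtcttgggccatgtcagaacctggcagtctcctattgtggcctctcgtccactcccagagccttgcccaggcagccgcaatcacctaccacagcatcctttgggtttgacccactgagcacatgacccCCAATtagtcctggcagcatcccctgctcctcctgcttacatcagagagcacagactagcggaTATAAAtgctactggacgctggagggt
Dio2: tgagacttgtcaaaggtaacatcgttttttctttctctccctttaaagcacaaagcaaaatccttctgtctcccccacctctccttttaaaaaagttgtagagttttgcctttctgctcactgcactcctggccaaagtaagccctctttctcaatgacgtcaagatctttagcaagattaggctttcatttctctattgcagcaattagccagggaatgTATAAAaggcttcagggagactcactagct
TATAAA on either strand was in this window of 44 of 335 genes that rose at least 2-fold (13.1%), of 6 of 122 that fell at least 2-fold (4.92%) and of 788 of all 11647 tested genes with an entry (6.77%). These shares describe letters in a window and no binding.

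**Figure D2:**
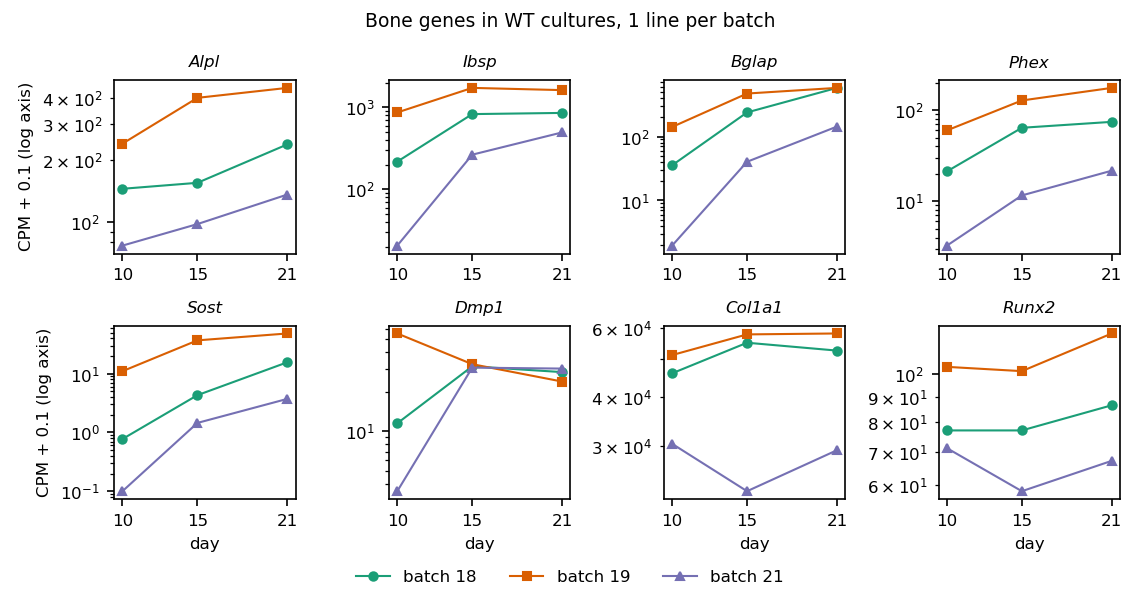
CPM plus 0.1 on a log axis at days 10, 15 and 21 for 8 bone genes in WT cultures, with 1 line per batch. Bglap, Phex and Sost are higher at day 21 than at day 10 in 3 of 3 batches. Dmp1 falls in batch 19 and is higher in the other two, and Col1a1 moves little.

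Of 12 tested osteocyte genes 6 rose, 2 fell and 4 did not pass (median log2 change 0.73), against 9.21% of all genes tested that rose and 6.16% that fell. Sost, which encodes the Wnt inhibitor sclerostin, was at 15.5, 48.1 and 3.62 CPM at day 21, against 0.672, 10.9 and 0 CPM at day 10. It was higher in each batch, with a fitted log2 change of 3.22 ± 0.48 (adjusted p = 0.00448). Phex, an endopeptidase of phosphate balance, was at 74.5, 176 and 21.6 CPM at day 21 and 21.2, 60.0 and 3.16 CPM at day 10, a 3.83-fold rise (adjusted p = 0.00102) that held with each batch left out. Mepe, a matrix phosphoglycoprotein, rose by a log2 of 3.45 ± 0.73 (0.0159, and 0.0514 without the day 10 library of batch 18). The Wnt inhibitor Dkk1 rose by 2.44 ± 0.39 (0.00588), heparanase, Hpse, 3.67-fold (0.00104) and the BMP pseudoreceptor Bambi 1.73-fold (8.91e-04).

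Dmp1, the dentin matrix protein of early osteocytes, did not pass. Its libraries held 28.1, 23.8 and 29.9 CPM at day 21 and 11.4, 55.4 and 3.4 CPM at day 10, so that the log2 changes were 1.30 in batch 18, -1.22 in batch 19 and 3.12 in batch 21 (adjusted p = 0.564). Pdpn, a membrane glycoprotein of early osteocytes, fell with a log2 change of -0.32 (0.0479), and leaving out any of 5 of the 6 libraries ended the call (0.0664 to 0.203). Gja1, the gap junction protein connexin 43, fell 1.39-fold (0.00329).

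Among 16 osteoblast transcription factors 5 rose and 2 fell, against 9.21% and 6.16% of all genes tested, with a median log2 change of 0.11. Sp7, osterix, was at 117, 187 and 64.0 CPM at day 21 and 54.2, 106 and 29.1 CPM at day 10. Its 2.03-fold rise had log2 changes of 1.10, 0.81 and 1.13 by batch (adjusted p = 0.00131). Runx2 was at 86.4, 120 and 67.0 CPM at day 21 and 77.0, 103 and 71.0 CPM at day 10, and the difference did not pass (0.388). The homeobox gene Dlx3 rose 3.58-fold (0.00958) and the Wnt effector Tcf7 2.15-fold (0.00656). The homeobox gene Msx2 fell 1.74-fold (0.0107, and 0.0573 without the day 21 library of batch 19).

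The collagen I genes and their main processing enzyme did not pass the test. Col1a1 was at 52595, 58153 and 29318 CPM at day 21 and 46027, 51230 and 30443 CPM at day 10 (log2 change 0.10 ± 0.16, adjusted p = 0.737), and Col1a2 differed by 0.27 ± 0.15 (0.275). Bmp1, which cleaves the C-terminal propeptide off procollagen, was at 448, 384 and 270 CPM at day 21 and 434, 389 and 245 CPM at day 10 (0.648), and its enhancer Pcolce differed by -0.13 ± 0.077 (0.305). Of 29 tested genes of procollagen modification, folding and processing 0 rose, against 9.21% of all genes tested, and 3 fell, against 6.16%. These were the lysyl hydroxylase Plod3 (log2 change -0.37, adjusted p = 0.031), the galactosyltransferase Colgalt1 (-0.23, 0.0479) and Tll1. Leaving out any 1 of the 6 libraries ended the call of Colgalt1 (0.0661 to 0.156), and 4 of them did so for Plod3 (0.0607 to 0.149). Tll1, a relative of Bmp1, fell 1.65-fold (0.0128, and 0.0502 to 0.0594 without 3 of the libraries).

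Of 19 fibrillar and fibril-associated collagens 2 rose, a share near the 9.21% of all genes tested, and 4 fell, against 6.16% (median log2 -0.23). Col22a1, a collagen of tissue junctions, was at 105, 183 and 60.2 CPM at day 21 and 13.6, 74.1 and 2.79 CPM at day 10 and rose 6.29-fold (adjusted p = 0.00736), while Col27a1 fell 1.35-fold (0.00626). Of 5 lysyl oxidases, which crosslink collagen, Loxl4 rose 2.65-fold (0.0014) and Loxl1 fell by a log2 of 0.25 (0.0353, and 0.0594 to 0.196 without any of 5 of the 6 libraries). The microfibril genes Fbn2 and Ltbp1 fell 2.23-fold (0.00569) and 1.58-fold (0.00358), and Ltbp2 rose 1.84-fold (0.0168). Comp, cartilage oligomeric matrix protein, rose 1.78-fold, with log2 changes of 0.80, 0.80 and 0.88 by batch (8.91e-04).

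Of 28 tested Wnt pathway genes 6 rose and 1 fell, against 9.21% and 6.16% of all genes tested. The secreted inhibitors Wif1, Sfrp4 and Frzb were among the rises. Wif1, Wnt inhibitory factor 1, was at 18.2, 60.6 and 4.98 CPM at day 21 and 1.61, 9.17 and 0.632 CPM at day 10. Each batch rose, 8.47-fold overall (adjusted p = 4.05e-04). The frizzled-related inhibitors Sfrp4 and Frzb rose 3.01-fold (0.00101) and 2.57-fold (0.00313). Other secreted inhibitors of the list did not pass: the log2 change was 0.40 for Sfrp1 (adjusted p = 0.387), -0.10 for Sfrp2 (0.546), -0.19 for Dkk2 (0.352), -0.28 for Dkk3 (0.0597) and 0.05 for Notum (0.961). Axin2, a common readout of Wnt signalling named after its values were seen, was at 7.29, 3.75 and 8.22 CPM at day 21 and 9.22, 7.38 and 7.56 CPM at day 10 (0.216).

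Of 30 BMP and TGF-beta genes 7 rose and 2 fell, against 9.21% and 6.16% of all genes tested. Gdf10, a ligand also called BMP3b, was at 679, 679 and 544 CPM at day 21 and 338, 321 and 307 CPM at day 10. The groups did not overlap (1.96-fold, adjusted p = 4.05e-04). Tgfb1 rose by a log2 of 0.81 ± 0.086 (0.0014) and Bmp3, a ligand that restrains bone formation, 2.61-fold (0.00972). Of 20 retinoid, vitamin D and steroid hormone genes 6 rose and 2 fell, against those same shares. They included the vitamin D receptor Vdr, which rose 2.22-fold (0.00337). The list also held Pth1r, the receptor of parathyroid hormone, a peptide, and it rose 1.77-fold (0.00226). Aldh1a2, which makes retinoic acid, rose 5.21-fold (0.00102). The chemokine Cxcl12 was at 1628, 1474 and 1321 CPM at day 21 and 960, 559 and 589 CPM at day 10, a 2.16-fold rise with no overlap (0.00131), whereas the osteoclast factor RANKL, Tnfsf11, was at 2.84, 4.05 and 1.33 CPM at day 21 and 2.42, 2.80 and 1.29 CPM at day 10 (0.38).

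Of 14 insulin-like growth factor (IGF) genes 4 rose and 2 fell, against 9.21% and 6.16% of all genes tested. Igfbp7, an IGF-binding protein, was at 152, 149 and 68.9 CPM at day 21 and 120, 83.6 and 39.6 CPM at day 10 (log2 change 0.65 ± 0.093, adjusted p = 0.00386), and Stc2, an inhibitor of IGF release, rose by 1.73 ± 0.30 (0.00777). Igf1 was lower in each batch, at 393, 410 and 320 CPM at day 21 and 430, 471 and 443 CPM at day 10, and missed the threshold (0.0501). The matrix proteases and inhibitors had 4 rises and 3 falls among 19, against those same shares. Stromelysin, Mmp3, was at 8.28, 10.3 and 4.37 CPM at day 21 and 4.25, 2.24 and 1.4 CPM at day 10. It rose within each batch by a fitted log2 of 1.58 ± 0.22 (0.00348). The aggrecanase Adamts4 fell by -0.58 ± 0.083 on the log2 scale (0.00404), and Fap, fibroblast activation protein, rose by 0.87 ± 0.14 (0.00656).

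Among 18 matricellular and adhesive proteins 3 rose and 3 fell, against 9.21% and 6.16% of all genes tested. Fibronectin, Fn1, on which early osteoblast matrix assembles, was at 5364, 4613 and 8100 CPM at day 21 and 7211, 8620 and 13227 CPM at day 10. It was lower in each batch (log2 change -0.69 ± 0.18, adjusted p = 0.034), and leaving out any of 5 libraries ended the call (0.0608 to 0.155). Thrombospondin 3, Thbs3, fell by -0.60 ± 0.11 on that scale (0.00983). Of 12 small leucine-rich proteoglycans 2 rose and 1 fell, against those same shares. Chad, chondroadherin, was at 0.938, 7.37 and 0.171 CPM at day 21 and 0.0807, 2.02 and 0.0527 CPM at day 10. Its rise had an adjusted p of 0.0049, and of 0.0514 without the day 10 library of batch 19.

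Dio2 had the smallest p. This deiodinase activates thyroid hormone, and it was at 80.2, 123 and 29.6 CPM at day 21, 37.2, 59.4 and 15.1 CPM at day 15 and 12.6, 26.9 and 4.72 CPM at day 10. It rose 5.55-fold with log2 changes of 2.66, 2.19 and 2.64 by batch (adjusted p = 8.52e-05). The carbonic anhydrase Car3 rose 6.32-fold (0.00102), the choline phosphodiesterase Enpp6 7.06-fold (0.00174), the hepatic lipase gene Lipc 6.80-fold (0.00264) and the secretogranin Scg2 8.48-fold (0.00348). The stress genes Atf3 and Chac1 rose 3.68-fold (6.77e-04) and 4.07-fold (0.0105, and 0.0556 without the day 10 library of batch 19). Of the 25 unfolded protein and integrated stress response genes on their list, 5 rose, 2 fell and 18 did not pass. The median log2 change was 0.02, and over all genes tested 9.21% rose and 6.16% fell. Pdia4 and Pdia6 fell, with log2 changes of -0.35 (0.0176) and -0.29 (0.0446), and neither call held with any batch left out.

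Cell division genes fell as a group. Of 36 cell cycle and DNA replication genes 31 fell and 0 rose, against 6.16% of all genes tested that fell, with a median log2 change of -0.99 (-0.59, -1.21 and -1.13 in batches 18, 19 and 21). Plk1, a mitotic kinase, was at 8.66, 12.6 and 7.85 CPM at day 21 and 13.5, 46.9 and 21.1 CPM at day 10. Each day 21 library was below each day 10 library, a 2.53-fold fall (adjusted p = 0.00777). Mki67, a marker of cycling cells, fell 2.10-fold (0.0145, and 0.0613 or 0.0776 without the day 10 or day 21 library of batch 19). Foxm1, a transcription factor of mitotic genes, fell 2.12-fold (0.0029), and the replication helicase subunit Mcm5 1.78-fold (0.00546). Cyclin E1, Ccne1, fell 1.92-fold (0.00183), and was the 1 call of the 31 that held with each batch left out. Cyclin D1, Ccnd1, was at 846, 588 and 950 CPM at day 21 and 854, 504 and 921 CPM at day 10 (0.591).

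**Figure D3:**
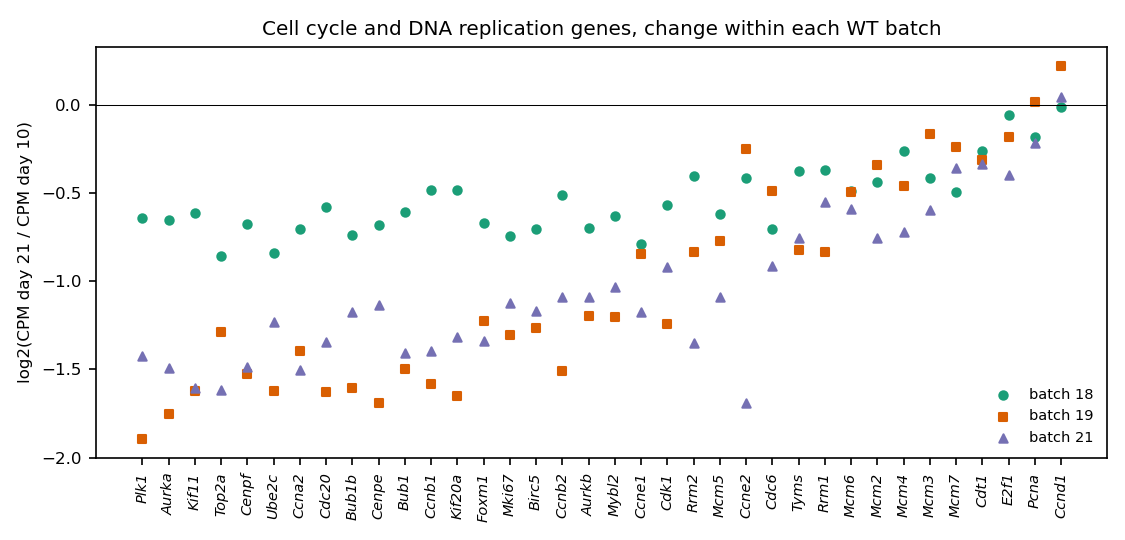
Log2 ratio of CPM at day 21 to CPM at day 10 within each WT batch (y axis) for 36 cell cycle and DNA replication genes (x axis, ordered by the fitted change). The 31 genes that fell have points below 0 in each batch, and batch 18 often has the smallest fall.

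Promoters of Top2a, Cdc20 and Cdk1 are printed because they hold both the CCAAT box and the cell cycle homology region (TTTGAA), elements known from genes of division, and have the smallest p among the 8 such genes. Capitals mark CCAAT and TTTGAA on either strand (ATTGG and TTCAAA are the reverse complements) in the 250 bases before the RefSeq start on GRCm38.p6. Top2a is at chr11:99024190-99024439, Cdc20 at chr4:118437344-118437593 and Cdk1 at chr10:69352913-69353162, all on the minus strand.
Top2a: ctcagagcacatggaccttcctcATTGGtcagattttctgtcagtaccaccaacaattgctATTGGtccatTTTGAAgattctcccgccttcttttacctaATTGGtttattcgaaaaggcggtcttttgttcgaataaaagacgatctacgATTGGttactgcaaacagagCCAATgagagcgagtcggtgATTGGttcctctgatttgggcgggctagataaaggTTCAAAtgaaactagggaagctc
Cdc20: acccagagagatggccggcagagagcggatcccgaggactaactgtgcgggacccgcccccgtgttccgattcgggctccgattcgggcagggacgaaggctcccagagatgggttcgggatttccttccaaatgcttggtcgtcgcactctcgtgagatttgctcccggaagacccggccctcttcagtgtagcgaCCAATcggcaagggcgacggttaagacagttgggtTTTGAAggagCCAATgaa
Cdk1: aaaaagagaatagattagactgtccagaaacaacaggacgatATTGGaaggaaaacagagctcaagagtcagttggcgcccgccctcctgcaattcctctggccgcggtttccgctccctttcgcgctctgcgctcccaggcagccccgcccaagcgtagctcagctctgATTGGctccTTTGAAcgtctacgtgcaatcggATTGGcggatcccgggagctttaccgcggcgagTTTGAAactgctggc
CCAAT occurred in 21 of the 26 fallen cell cycle genes with an entry (80.8%), in 66 of 122 genes that fell at least 2-fold (54.1%), in 81 of 335 that rose at least 2-fold (24.2%) and in 4196 of 11647 tested genes (36%). TTTGAA occurred in 8 of the 26 (30.8%), in 35 of the 122 (28.7%), in 36 of the 335 (10.7%) and in 1227 of the 11647 (10.5%). Top2a was at 25.5, 55.2 and 25.1 CPM at day 21 and 46.1, 135 and 76.9 CPM at day 10 (0.00562), Cdc20 at 12.3, 18.6 and 10.7 CPM at day 21 and 18.4, 57.6 and 27.2 CPM at day 10 (0.00575), and Cdk1 at 18.6, 24.5 and 20.8 CPM at day 21 and 27.6, 57.9 and 39.4 CPM at day 10 (0.00645).

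Genes outside the cell cycle list were also among the largest falls. AW551984 was at 31.0, 5.22 and 9.31 CPM at day 21 and 89.5, 22.4 and 27.0 CPM at day 10, a 3.28-fold fall (adjusted p = 6.77e-04). The chromatin protein gene Hmga2 fell 2.50-fold (0.00546), the guidance factor Sema3e 2.77-fold (0.00508) and the secreted osteogenic factor Nell1 2.51-fold (0.00165).

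Myeloid genes were among the largest rises. Itgax, the integrin CD11c of dendritic cells and macrophages, was at 3.73, 63.8 and 167 CPM at day 21 and 0.592, 3.73 and 5.51 CPM at day 10. It rose in each batch, 19.8-fold overall (adjusted p = 3.55e-04). Macrophage elastase, Mmp12, was at 16.1, 279 and 605 CPM at day 21 and 4.36, 20.5 and 25.3 CPM at day 10 (12.4-fold, 0.00177). Atp6v0d2, a proton pump subunit of osteoclasts and macrophages, rose 9.88-fold (1.19e-04), Mmp9 5.05-fold (0.0011) and the cell fusion gene Dcstamp by a log2 of 5.37 ± 0.61 (0.00173). Dcstamp was near its detection limit at day 10, at 0.0538, 0.101 and 0.0527 CPM, against 0.166, 4.08 and 4.88 CPM at day 21.

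Not every macrophage gene rose. Lysozyme 2, Lyz2, an abundant macrophage product, was at 4029, 4554 and 6298 CPM at day 21 and 2031, 2235 and 6402 CPM at day 10, about level in batch 21 (adjusted p = 0.0574). Of 13 markers 7 rose and 0 fell (median log2 change 0.67), and of 9 tested osteoclast markers 6 rose and 0 fell (0.73). With each batch left out, 2 of the 7 and 3 of the 6 calls held. The macrophage medians were 0.98, 1.02 and 0.21 in batches 18, 19 and 21. Over all genes tested 9.21% rose and 6.16% fell. Cd68 was at 193, 354 and 448 CPM at day 21 and 97.8, 122 and 271 CPM at day 10 (2.10-fold, adjusted p = 0.0043). In batch 21, Adgre1 (F4/80) was at 359 CPM at day 21 and 356 CPM at day 10, against 172 and 89.0 CPM in batch 18 and 261 and 124 CPM in batch 19 (0.0579). The fractalkine receptor Cx3cr1 fell, at 0.579, 3.42 and 18.5 CPM at day 21 and 1.51, 22.8 and 48.5 CPM at day 10 (3.63-fold, 0.00562). Of 16 complement genes 11 rose and 0 fell (median log2 0.75, and 0.91, 1.02 and 0.35 in batches 18, 19 and 21). Of the 11 calls, 3 held with each batch left out. The rises included Serping1, the C1 inhibitor, with a log2 change of 0.72 to 0.73 in each batch (0.0012), and the receptor C3ar1, 1.96-fold (0.00139). C1qa, which is also on the macrophage list, rose by 0.91 ± 0.20 (0.0172). The part of cell composition in these changes was not tested.

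**Figure D4:**
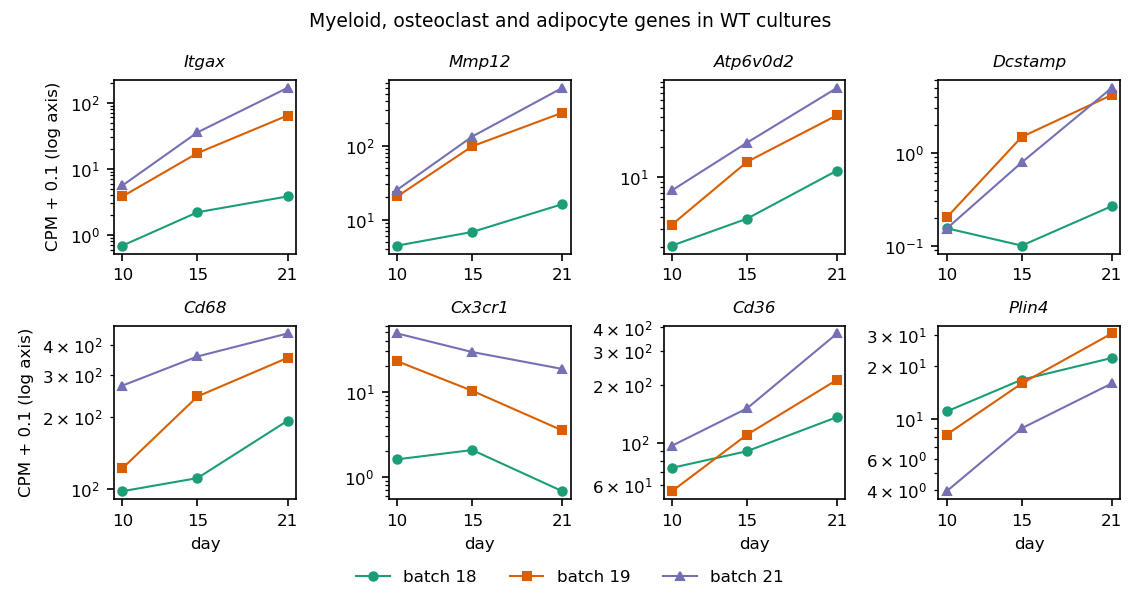
CPM plus 0.1 on a log axis at days 10, 15 and 21 for 6 myeloid or osteoclast genes and 2 adipocyte genes in WT cultures, with 1 line per batch. Itgax, Mmp12 and Atp6v0d2 rise in each batch and are lowest in batch 18, while Cx3cr1 falls.

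Adipocyte markers rose in WT. Of 10 tested markers 8 rose and 0 fell, against 9.21% and 6.16% of all genes tested, with a median log2 change of 1.61. The batch medians were 0.86, 1.78 and 2.51 in batches 18, 19 and 21, and 3 of the 8 calls held with each batch left out. Plin4, a lipid droplet coat protein, was at 22.2, 30.6 and 15.9 CPM at day 21 and 11, 8.11 and 3.82 CPM at day 10 (3.11-fold, adjusted p = 0.00143). The fatty acid carrier Cd36 was at 136, 213 and 372 CPM at day 21 and 73.8, 55.7 and 96.3 CPM at day 10 (3.02-fold, 0.00211), and is also expressed by macrophages. Adipoq, the fat hormone adiponectin, was at 27.1, 4.71 and 9.21 CPM at day 21 and 13.2, 0.756 and 0.0527 CPM at day 10. Batch 18 was highest on both days and batch 21 was near 0 at day 10 (log2 change 2.23 ± 0.62, 0.0439). The complement factor Cfd, which is adipsin of fat cells, showed the same order of batches at day 21, at 29.8, 5.93 and 13.1 CPM, against 4.63, 0.68 and 0.0263 CPM at day 10 (0.0136). The master regulator Pparg rose 1.56-fold (0.00777) and Cebpa 1.37-fold (0.0019). The brown fat gene Ucp1 was at 0 on both days. Cox8b, a respiratory chain subunit of muscle and brown fat, was at 0.745, 1.38 and 0.171 CPM at day 21 and 0.188, 0.151 and 0 CPM at day 10. It passed the test (0.00495, and 0.121 without batch 19), on 27, 46 and 5 reads at day 21 and 7, 6 and 0 reads at day 10. Chondrocyte markers split, with 2 rises and 2 falls among 10, and the cartilage collagen Col2a1 was at 574, 1270 and 1478 CPM at day 21 and 617, 2710 and 3900 CPM at day 10 (0.0344, lost without either library of batch 19 or 21, at 0.083 to 0.147).

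**Figure D5:**
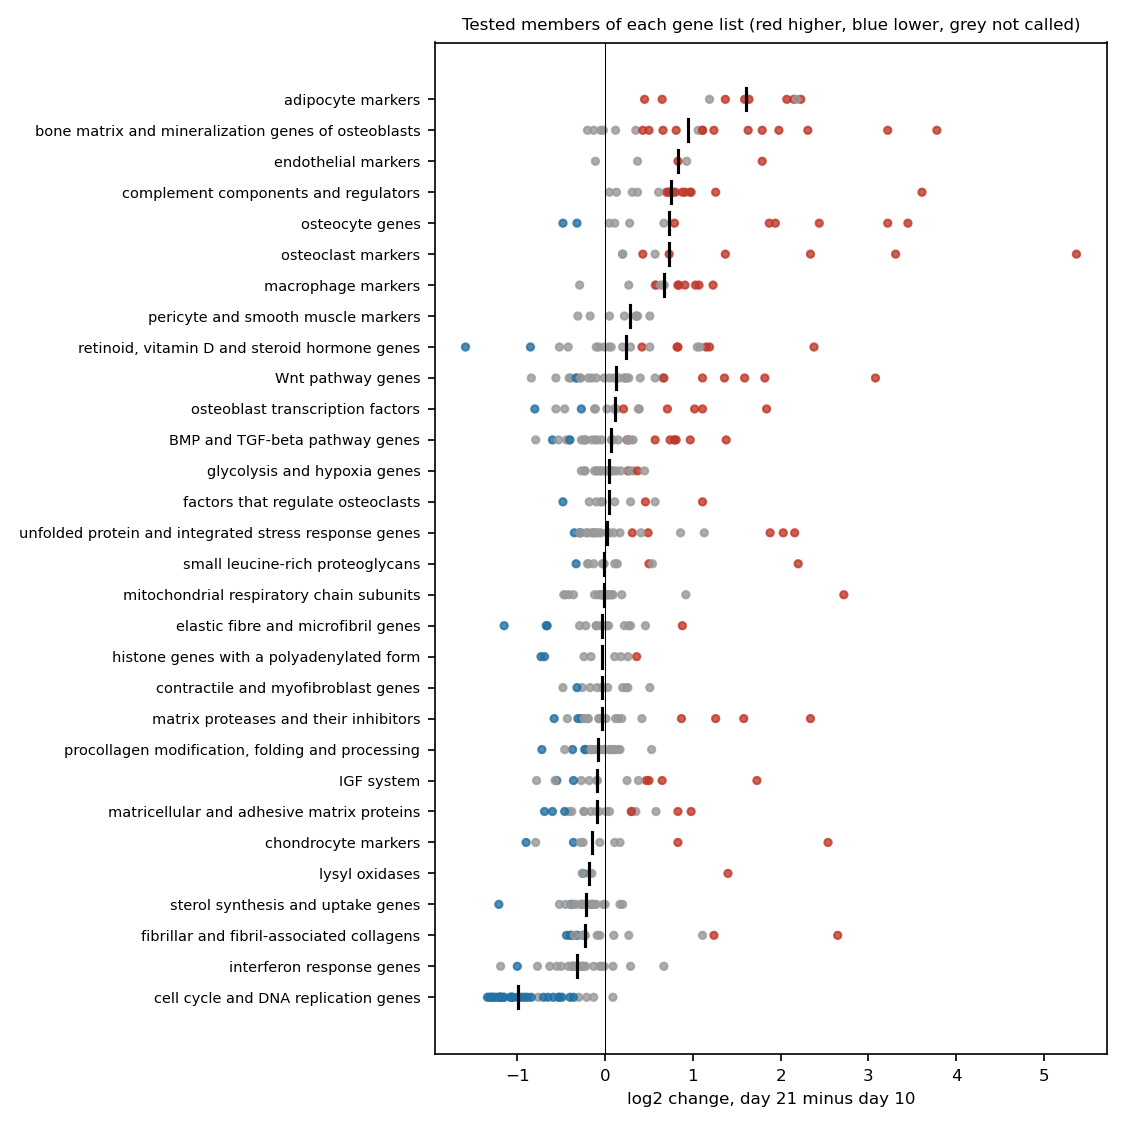
Log2 change, day 21 minus day 10, of the tested members of each gene list with at least 5 tested genes (x axis). Red members rose, blue members fell, grey members did not pass, and black bars are list medians, from 1.61 for adipocyte markers to -0.99 for the cell cycle list.

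Several other lists held shares of calls near those of all genes tested (9.21% rose, 6.16% fell). Of 22 glycolysis and hypoxia genes 2 rose and 0 fell, of 24 tested respiratory chain subunits 1 rose and 0 fell, and of 12 contractile genes 0 rose and 1 fell, with median log2 changes of 0.04, -0.01 and -0.03. Of 23 sterol genes 0 rose and 2 fell, and 21 had a lower value (median -0.22), with batch medians of 0.10, -0.40 and -0.51 in batches 18, 19 and 21. Of 24 interferon response genes 0 rose and 2 fell, and 21 had a lower value (median -0.32), with batch medians of 0.10, -0.36 and -0.43. Isg15, a ubiquitin-like protein, fell (adjusted p = 0.0156, and 0.0886 or 0.0755 without the day 10 or day 21 library of batch 19).

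Calls of other genes named above also needed a batch, and those listed here are not all of them. The calls of Smpd3, Phospho1, Ifitm5, Slc13a5, Enpp1, Ank, Dkk1, C1qa and Adipoq were each lost without some batch. Without batch 18, Dlx3, Col22a1, Col27a1, Thbs3, Fap, Bmp3 and Stc2 had adjusted p between 0.0557 and 0.0719. Without batch 19, Scg2, Cx3cr1, Plk1, Hmga2, Gja1, Ltbp2, Fbn2, Fap, Frzb, Igfbp7, Stc2, Foxm1, Mcm5 and Pparg had adjusted p between 0.0555 and 0.102.

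Each step by way of day 15 had fewer calls than the whole span. Between days 10 and 15, 89 genes rose and 22 fell (0.7% of 15859), and between days 15 and 21, 5 rose and 0 fell (0.0315%), with 2743 and 2259 genes at an unadjusted p under 0.05. DESeq2 called 497 and 298. Of the 1460 genes that rose by day 21, 1419 had a day 15 value between those of days 10 and 21, with medians of 0.36 and 0.32 for the steps; for the 977 that fell it was 927, with -0.25 and -0.21. These genes were chosen by their day 10 and day 21 values, which favours a day 15 value between them. The counts and medians therefore do not test how the change was spread over the steps. The steps also share the day 15 libraries. In the first step the macrophage receptor Vsig4 (log2 1.40), the Ras-like gene Rerg (1.21) and Dio2 (1.42) rose with an adjusted p of 0.00247, as did Esm1 (1.52), a secreted proteoglycan. In the second Dio2 (1.05), the stress gene Nupr1 (0.76), Rgs1 (1.67), Atp6v0d2 (1.67) and the lectin gene Clec7a (1.17) were the 5 genes that rose, with adjusted p of 0.021 to 0.0223. The perinatal myosin Myh8 fell in the first step, at 5.34, 1.69 and 20.7 CPM at day 15 and 9.82, 3.5 and 43.4 CPM at day 10 (0.00507). The imprinted gene Zim1 (-0.74) and the heparan sulfate sulfotransferase Hs3st3b1 (-0.68) fell in that step too.

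Many of the changes were also called in HBM cultures. Between days 10 and 21, 875 genes rose and 818 fell in HBM (10.4% of 16344). Of the WT genes called, 1006 were called in the same direction in HBM, which is 41.3% of the WT calls and 59.4% of the HBM calls, and 0 were called in the opposite direction. The difference of the change between genotypes passed for 0 genes in edgeR (lowest adjusted p 0.313, 1272 genes at an unadjusted p under 0.05) and for 50 in DESeq2. The smallest p was that of Vsig4, with log2 changes of 1.82 in WT and 0.49 in HBM. Adipocyte markers had a median log2 change of 1.61 in WT and -0.07 in HBM, complement genes 0.75 and 0.25, macrophage markers 0.67 and 0.11 and cell cycle genes -0.99 and -1.02. No single gene of these lists passed the edgeR test of the difference.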

How the data were processed

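Gene counts of the libraries were deposited by the authors, on mm10. Per the submitters' processing notes, reads were trimmed by cutadapt 3.4 and processed with STAR 2.7.8a and Subread 2.0.1. Neither strand setting nor annotation release was given, so reads of overlapping, antisense or near-identical genes could not be told apart. Of 54232 rows, 54164 matched GENCODE M21, which gave symbols and coordinates. The 68 others held at most 0.00337% of a library's counts.

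The 9 WT libraries of days 10, 15 and 21 were fitted in R 4.3.3 with edgeR 4.0.16 (quasi-likelihood test, TMM scaling, factors 0.965 to 1.07, edgeR's low-count filter). Batch was a block: the labels carry a batch tag, and deviations from the day means correlated at 0.629 to 0.768 within a batch. Between batches these deviations correlated at -0.553 to -0.149. Centring on the 3 libraries of a day pushes those values below 0, so they are no separate evidence. P-values were adjusted by Benjamini-Hochberg over 15859 genes, with a threshold of 0.05. They measure how the differences between days varied among 3 pooled cultures, after the block removed each culture's own level. Levels are CPM on the TMM scale and cannot be compared between genes. Some called genes rest on few reads at day 10 (Dcstamp on 2, 4 and 2, Mepe on 3, 137 and 0), where counting error is large. Log2 changes of single batches are from CPM. The genotype difference was an interaction in 18 libraries with the culture as block (16344 genes). Genes were named by rules: 16 fixed bone genes, the 12 largest stable rises and falls of at least 2-fold and 10 CPM, and up to 4 per list and direction. Other names were chosen after their values were seen. Members and lists were chosen with earlier results of these data known. DESeq2 1.42.0 and limma 3.58.1 were alternatives, and the fits were tested on simulated data. Promoters are RefSeq sequences (GRCm38.p6), matched by symbol for 11647 tested genes.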

Additional observations from a re-analysis of the deposited data

How the results depend on the processing

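The count of genes between days 10 and 21 (2437) was 0 without the batch as replicate block, where the common biological coefficient of variation was 0.265 against 0.0943 with it, and 1269 in a fit of the 6 libraries alone. It lay between 2390 and 2918 with DESeq2, limma-voom, DESeq2 size factors, other filters or 18 libraries, and between 357 and 2358 with a batch or a library left out. For days 10 to 15 (111 genes) the count was 0 without the block, 66 with 18 libraries, 771 with no filter, 497 with DESeq2 and 2 to 207 with a batch or library left out. For days 15 to 21 (5 genes) it was 0 without the block, 1 with 18 libraries, 523 with no filter, 298 with DESeq2, 3 with limma-voom and 0 to 41 with a batch or library left out. The genotype difference (0 genes) gave 3 with no filter, 50 with DESeq2 and 0 to 1 with a batch left out. The cause of these differences was not tested. No gene named by the rules reversed under these alternatives, and of 153 such genes 143 changed to not called without the block and 82 without batch 19. DESeq2 size factors shifted the median log2 change by 0.007. With 3 pooled cultures, calls near the threshold depend on single libraries.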

Other observations

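Imprinted genes, whose transcription depends on the parent of origin and many of which control fetal growth, were listed after their values were seen, so that no test is given for the list. Of 23 tested, 11 fell and 1 rose between days 10 and 21 in WT, and 22 had a lower value (median log2 change -0.55). Over all genes tested 6.16% fell, 9.21% rose and 48.8% had a higher value at day 21. H19, a long noncoding RNA, was at 1541, 1539 and 1031 CPM in batches 18, 19 and 21 at day 21 and at 2838, 2630 and 1576 CPM at day 10 (edgeR adjusted p = 0.00366). The zinc finger gene Plagl1 was at 194, 130 and 98.1 CPM at day 21 and 270, 250 and 161 CPM at day 10 (0.00234). Peg3 and Grb10, an adaptor of insulin receptor signalling, fell by log2 changes of 0.55 (0.00559) and 0.58 (0.00348). Igf2, which lies beside H19, was at 25.7, 52.9 and 17.1 CPM at day 21 and 27.3, 60.4 and 16.9 CPM at day 10 (0.529), and Peg13 was the 1 gene of the list that rose (0.28, 0.0362).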
